A study of Caenorhabditis elegans with 2 samples.

Results

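The genes described here encode the translation initiation and elongation factors of Caenorhabditis elegans, and the measurement is where the transcription factor EFL-1 bound near their starts. Members were the protein-coding genes whose names begin with eif-, eef-, ife-, iff- or eft-, joined by ifg-1, egl-45, clu-1 and inf-1. This gave 42 genes out of 19973 protein-coding genes on the 6 nuclear chromosomes. EFL-1 was mapped by chromatin immunoprecipitation followed by sequencing (ChIP-seq) in whole hermaphrodite larvae of the wild-type strain N2, taken at L1, the first larval stage, and grown at 26 °C. The series holds 1 group of 2 biological replicates, with no mutant, no other stage and no other factor, so no conditions were compared. A gene was called bound when a peak summit of the authors' reproducible peak set fell in its promoter window, which reached from 500 bp before the annotated start to 200 bp after it. The animals were whole larvae, so a peak does not tell in which cells EFL-1 was bound.

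Initiation brings the small ribosomal subunit to the start codon of a message. The factor eIF2 carries the initiator tRNA with GTP and is recharged by eIF2B, eIF1, eIF1A and the large complex eIF3 prepare the small subunit for scanning, and the cap-binding complex eIF4F recruits the message. In elongation eEF1A delivers aminoacyl-tRNAs, the eEF1B subunits reload it with GTP, and eEF2 moves the ribosome by one codon. EFL-1 is the worm counterpart of the mammalian repressors E2F4 and E2F5 and belongs to the DREAM complex, known for repressing cell cycle genes in cells that do not divide. Its known DNA contacts are the E2F consensus and, through another DREAM subunit, the cell cycle genes homology region (CHR).

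The sequences around the summits show what lay under the peaks. The E2F consensus was read as TTCCCGC or TTCGCGC or TTGCCGC or TTGGCGC on either strand within 100 bp of a summit. For each role, the highest-scoring bound member that held the consensus is shown, or the highest-scoring one where none held it among members on chromosomes II, III, IV, V and X. Each stretch is at most 201 bp of the reference genome (RefSeq, WBcel235, which is ce11) around the summit, shortened where it would run into an exon, and is written 5′ to 3′ on the strand of the member. Capitals mark the consensus in either orientation. The stretch of eif-1.A is chrIV:4810461-4810661 (+), that of eif-2Bdelta chrV:9513701-9513823 (+) and that of eif-2A chrII:10416572-10416772 (+). The stretch of eif-3.D is chrIII:8971732-8971891 (-), that of ife-3 chrV:8165-8365 (-) and that of iff-2 chrII:8561368-8561531 (-). The stretch of eef-1G is chrV:10965575-10965718 (+) and that of clu-1 chrIII:9521798-9521998 (-). All of them lay upstream of the annotated start of the member, outside annotated exons.
eif-1.A: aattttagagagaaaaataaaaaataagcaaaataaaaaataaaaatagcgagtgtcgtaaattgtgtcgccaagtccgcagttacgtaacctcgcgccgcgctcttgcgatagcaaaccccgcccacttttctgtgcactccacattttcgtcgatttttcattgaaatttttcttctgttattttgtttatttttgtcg
eif-2Bdelta: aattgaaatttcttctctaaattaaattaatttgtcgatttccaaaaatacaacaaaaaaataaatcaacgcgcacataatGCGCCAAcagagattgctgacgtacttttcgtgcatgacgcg
eif-2A: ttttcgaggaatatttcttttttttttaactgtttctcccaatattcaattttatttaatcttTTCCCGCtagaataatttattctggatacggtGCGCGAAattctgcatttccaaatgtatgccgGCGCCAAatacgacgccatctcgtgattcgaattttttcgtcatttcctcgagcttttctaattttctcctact
eif-3.D: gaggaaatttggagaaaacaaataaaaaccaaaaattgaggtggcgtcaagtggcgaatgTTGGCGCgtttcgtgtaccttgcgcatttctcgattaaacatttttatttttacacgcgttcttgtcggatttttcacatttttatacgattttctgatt
ife-3: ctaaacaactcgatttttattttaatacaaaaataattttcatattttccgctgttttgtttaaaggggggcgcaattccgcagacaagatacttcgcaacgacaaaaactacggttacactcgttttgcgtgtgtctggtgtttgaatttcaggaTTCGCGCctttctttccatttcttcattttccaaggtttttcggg
iff-2: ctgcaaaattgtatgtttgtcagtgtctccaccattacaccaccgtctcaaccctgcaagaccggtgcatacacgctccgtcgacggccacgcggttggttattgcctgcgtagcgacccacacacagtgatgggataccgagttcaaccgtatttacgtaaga
eef-1G: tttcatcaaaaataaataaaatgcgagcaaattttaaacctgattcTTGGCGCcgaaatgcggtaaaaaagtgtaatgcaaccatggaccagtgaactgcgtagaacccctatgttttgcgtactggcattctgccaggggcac
clu-1: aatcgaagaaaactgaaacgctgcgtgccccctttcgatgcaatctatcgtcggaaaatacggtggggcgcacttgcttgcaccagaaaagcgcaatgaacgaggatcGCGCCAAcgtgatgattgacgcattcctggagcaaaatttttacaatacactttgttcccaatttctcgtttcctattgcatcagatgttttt

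In these stretches eif-2A held 3 copies of the consensus, spaced at -34, -2 and 30 bp from its summit. The single copy of eif-3.D was centred 4 bp from the summit and that of clu-1 11 bp from it. The copies of eif-2Bdelta, eef-1G and ife-3 were centred -16, -51 and 59 bp from their summits, counted in the direction of transcription. No copy lay in the stretches of eif-1.A and iff-2, although iff-2 had one of the highest scores among the members.

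Most translation factor genes carried an EFL-1 summit. Of the 42 members, 30 (71.4%) were bound, against 3027 of 19973 protein-coding genes, or 15.2%. The 30 bound members had 30 different peaks, and no member had more than 1 summit in its window. Bound members comprised both eIF1-type genes, all 5 eIF2B genes, 7 of 12 eIF3 genes, 4 of 8 eIF4 genes, both eIF5A genes, the eIF6 gene, all 6 elongation factor genes and clu-1, while 1 of 3 eIF2 genes and 1 of 2 genes for eIF2A and eIF2D were bound. Initiation factor genes outside eIF3 were bound in 16 of 23 cases, and in 10 of 23 when the window was narrowed to 300 bp upstream and 100 bp downstream. The X chromosome held 3 members, of which 2 were bound, and the autosomes held 39, of which 28 were bound. Shares of all genes on X and on the autosomes were not computed, so these counts are not compared. Counts are given without a test, because the members were chosen with results of these data known.

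**Figure D1:**
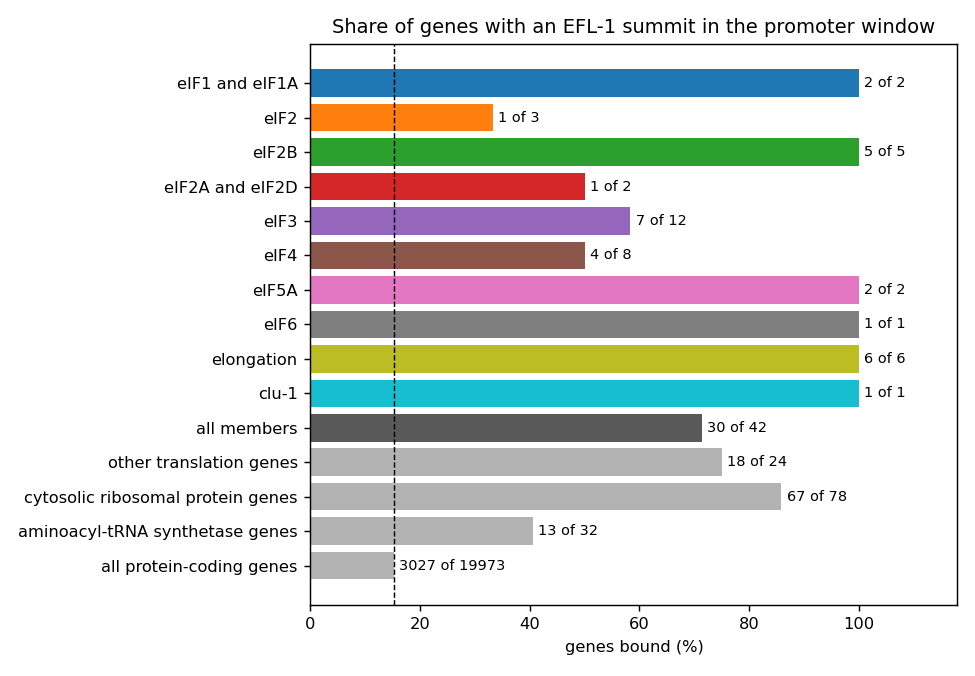
Share of genes with an EFL-1 summit in the promoter window, in percent (horizontal axis), for each role of the translation factors, for all 42 members and, in grey, for 3 comparison lists and all protein-coding genes. Labels give the bound genes and the genes in the list, and the dashed line marks the 15.2% of all protein-coding genes; every role lies to its right, and the elongation, eIF2B, eIF1-type and eIF5A genes were all bound.

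Peak scores are the authors' own, on a scale that is not stated, and were compared only within 1 list. The reproducible set, made by the irreproducible discovery rate (IDR), held 4835 peaks with scores from 59.57 to 15977.6 and a median of 179.8. It was the same as the 4835 highest-scoring peaks of the pooled list, so rank 1 is the highest score in the reads of both replicates together. The replicate lists held 28817 and 30000 relaxed peaks in replicates 1 and 2, and the pooled list 30000. The lists carry no read numbers, so the depth behind each score is unknown.

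Peaks of bound members scored between 147.8 and 5892.4 with a median of 581.8, and the middle of the distribution ran from 280.3 to 1425.3 (lower and upper quartile). The best peaks of all bound genes had a median of 325.3 with quartiles of 146 and 851.3. In 28 of 30 bound members (93.3%) the peak scored at or above the median of the IDR set, against 68.5% of all bound genes. Exceptions were eif-2A and eif-4A3. In 9 of 30 bound members (30%) it ranked among the first 483 peaks of the set, against 18.4% of all bound genes. These 9 were eef-2, eif-3.C, eif-3.B, iff-2, eef-1A.1, eef-1G, eef-1B.2, ife-3 and eef-1B.1.

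**Figure D2:**
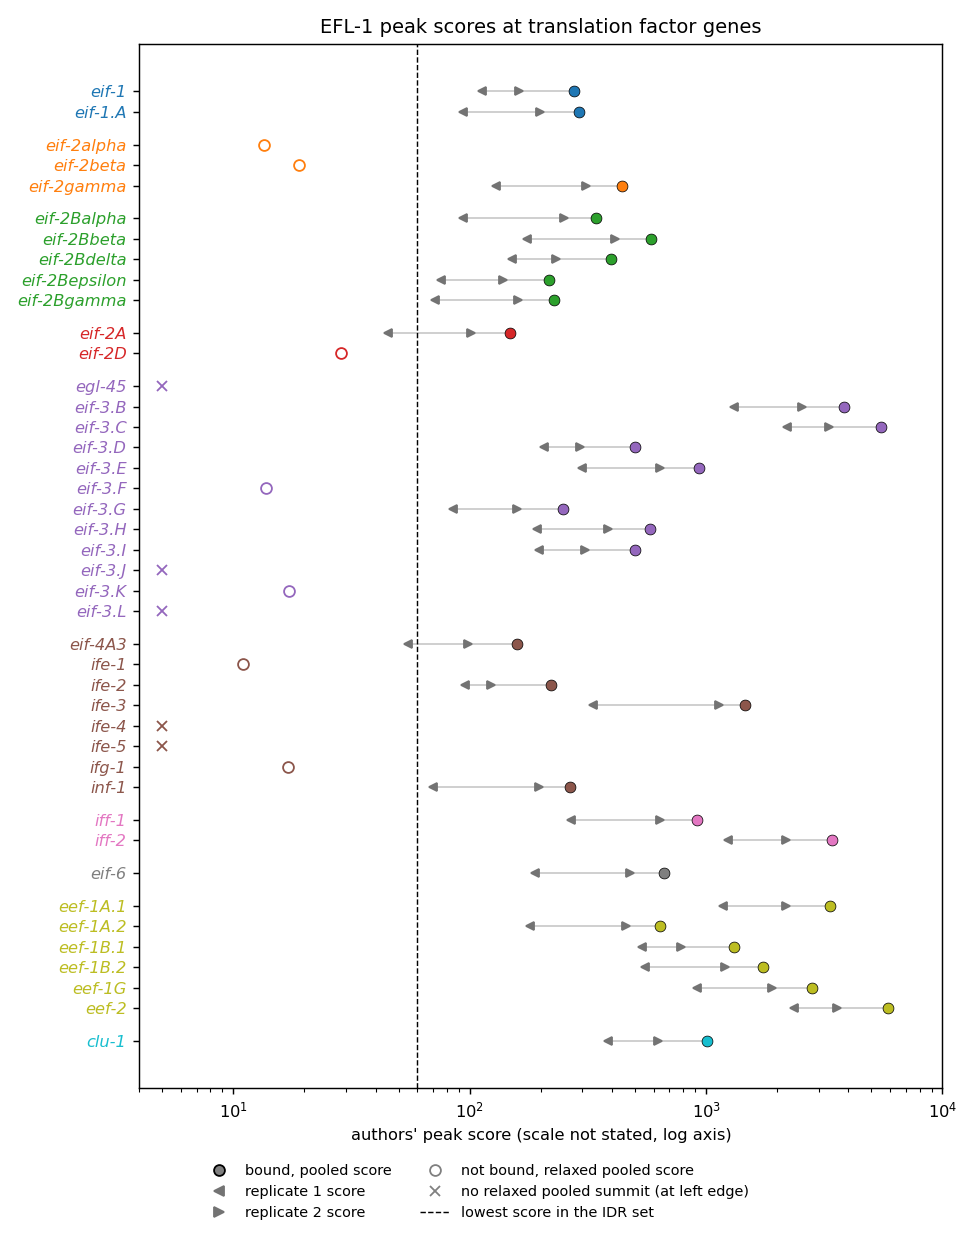
Authors' peak score (horizontal axis, log scale, scale not stated) of every member, grouped by role from eIF1 at the top to clu-1 at the bottom. Filled circles are pooled scores of bound members, triangles the scores of the same peaks in replicates 1 and 2, open circles the highest relaxed pooled score in the window of an unbound member, crosses at the left edge unbound members with no relaxed pooled summit, and the dashed line the lowest IDR score of 59.57; no member lies near that line, with bound members at 147.8 or more and unbound members at 28.64 or less.

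All 6 elongation factor genes were bound, with pooled scores from 637.2 to 5892.4 and a median of 2269.4, and 5 of the 6 ranked among the first 483 peaks. The peak of eef-2, which encodes the translocase eEF2, scored 2343.7 in replicate 1 and 3585.9 in replicate 2, and with a pooled score of 5892.4 at rank 24 it was the highest of all members. It lay -14 bp from the annotated start. The peak of eef-1A.1, one of the pair of genes for eEF1A, scored 1181.0 and 2184.1 in replicates 1 and 2 and 3351.1 in the pooled reads (rank 115, -389 bp, chrIII:6971860-6972314). The other eEF1A gene, eef-1A.2 on the X chromosome, scored 179.4 and 459.1 in replicates 1 and 2 and 637.2 in the pooled reads (rank 884, -357 bp). Although both genes encode eEF1A, the peak in the window of eef-1A.1 scored higher in each replicate. Its summit lay nearer to the start of rfc-4 on the opposite strand (-152 bp), so that peak cannot be assigned to either gene. Among the genes for the exchange factor, eef-1G, for the gamma subunit, scored 915.5 and 1891.0 in replicates 1 and 2 and 2792.6 in the pooled reads (rank 168, -44 bp). The peak of eef-1B.2 scored 549.2 and 1204.9 in replicates 1 and 2 and 1746.2 in the pooled reads (rank 321, -168 bp), and that of eef-1B.1 scored 537 and 779.5 in replicates 1 and 2 and 1314.6 in the pooled reads (rank 446, 10 bp). Ordered from eef-2 through eef-1A.1, eef-1G, eef-1B.2 and eef-1B.1 to eef-1A.2, the scores decreased in the same order in both replicates, with eef-1B.2 and eef-1B.1 close together in replicate 1. The summit of eef-1B.1 was the only one of the 30 that lay downstream of the start.

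The 12 eIF3 genes were divided. Of these, 7 were bound with scores from 248.7 to 5496.7 and a median of 579.9, and 5 were not. The peak of eif-3.C, whose product is part of the core that contacts the small subunit, scored 2197.1 in replicate 1 and 3320.0 in replicate 2, with a pooled score of 5496.7 (rank 32, -240 bp). The peak of eif-3.B, for the scaffold subunit that holds the G and I subunits in yeast, scored 1312.4 and 2549.1 in replicates 1 and 2 and 3835.5 in the pooled reads (rank 90, -239 bp, chrII:14794910-14795384). These were the only eIF3 peaks among the first 483. Next came eif-3.E, with 297.2 and 639.9 in replicates 1 and 2 and 932.6 in the pooled reads (rank 618, -192 bp). The peaks of eif-3.H, eif-3.I and eif-3.D had close pooled scores of 579.9, 502.2 and 502 (ranks 973, 1086 and 1088), and their order differed between replicates. Replicate 1 scored eif-3.D at 206, eif-3.I at 196.9 and eif-3.H at 193.1, whereas replicate 2 scored eif-3.H at 386.4, eif-3.I at 306.2 and eif-3.D at 294.1. The D subunit can itself bind the cap of some messages in human cells, and its peak is among the sequences shown above, with the consensus almost at the summit. The lowest bound eIF3 gene was eif-3.G, with 85.12 and 159.2 in replicates 1 and 2 and 248.7 in the pooled reads (rank 1913, -335 bp). Not bound were egl-45, which encodes the largest eIF3 subunit, and eif-3.F, eif-3.J, eif-3.K and eif-3.L.

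The eIF2B complex exchanges GDP for GTP on eIF2 and is the step slowed when eIF2 is phosphorylated under stress. All 5 of its genes were bound, with pooled scores from 216.5 to 583.6. The regulatory subunits scored highest, with eif-2Bbeta at 174.7 and 409.9 in replicates 1 and 2 and 583.6 in the pooled reads (rank 966). The pooled score was 394.4 for eif-2Bdelta (rank 1332; 151.5 and 232.2 in replicates 1 and 2) and 341.5 for eif-2Balpha (rank 1498; 93.36 and 250). Peaks of the catalytic subunits were the lowest of the complex. They scored 226.6 for eif-2Bgamma (rank 2040; 71.36 and 159.6 in replicates 1 and 2) and 216.5 for eif-2Bepsilon (rank 2097; 75.47 and 138.3). The order of delta and alpha, and that of gamma and epsilon, was not the same in the replicates, so only beta at the top and the catalytic pair at the bottom kept their places. Summits of the 5 genes lay between -153 and -23 bp from the start. Those of eif-2Bbeta and eif-2Bepsilon lay nearer to Y47H9C.8 (-51 bp) and piga-1 (-22 bp) on the opposite strand. As these peaks cannot be assigned to either gene of their pair, the order above is of peaks in the windows.

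Of the 3 subunits of eIF2 itself, 1 gene was bound. The peak of eif-2gamma, for the subunit that holds GTP and the initiator tRNA, scored 129.6 and 311.9 in replicates 1 and 2 and 440.1 in the pooled reads (rank 1217, -150 bp). The genes eif-2alpha, whose product is the subunit phosphorylated under stress, and eif-2beta had no IDR summit in the window. For eif-2beta this depended on the annotation: with the RefSeq start, which lies 960 bp downstream of the Ensembl start, a peak with a pooled score of 148.9 (50.33 and 97.92 in replicates 1 and 2) lay -215 bp from it and the gene was bound. RefSeq starts were examined after the data were seen. Of the related pair eif-2A and eif-2D, which can bring tRNA to the ribosome without eIF2 in mammals, eif-2A was bound at the lowest pooled score of all bound members, 147.8 (rank 2768; 45.31 and 101.1 in replicates 1 and 2; eif-4A3 was lower in replicate 2, at 97.98), and eif-2D was not.

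The genes for eIF1, eIF1A, eIF6 and eIF5A and the gene clu-1 were all bound. The peak of eif-1, whose product guards start codon choice, scored 112.3 and 162.1 in replicates 1 and 2 and 277.1 in the pooled reads (rank 1770, -407 bp). That of eif-1.A scored 93.59 and 198 in replicates 1 and 2 and 289.8 in the pooled reads (rank 1698, -373 bp). The peak of eif-6, whose product keeps free large subunits from joining small ones, scored 189 and 474.7 in replicates 1 and 2 and 661.9 in the pooled reads (rank 857, -343 bp). The protein eIF5A carries the modified residue hypusine and helps ribosomes through stalling sequences. Both of its genes were bound. The peak of iff-2 scored 1243.6 and 2171.1 in replicates 1 and 2 and 3400.0 in the pooled reads (rank 114, -64 bp). Its RefSeq start lies 403 bp downstream of the Ensembl start, and the summit lay -467 bp from that RefSeq start. The peak of iff-1, the gene needed in the germ line, scored 269.5 and 637.7 in replicates 1 and 2 and 912.1 in the pooled reads (rank 631, -177 bp). The gene clu-1, related to CLUH, a mammalian RNA-binding protein for messages of mitochondrial proteins, scored 386.1 and 626 in replicates 1 and 2 and 1004.0 in the pooled reads (rank 573, -438 bp).

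Genes of the cap-binding side were bound in 4 of 8 cases, with pooled scores from 159.1 to 1462.1. C. elegans has 5 genes for the cap-binding protein eIF4E, ife-1 to ife-5, and of these ife-3 and ife-2 were bound. The peak of ife-3 scored 331.5 in replicate 1 and 1134.2 in replicate 2, with a pooled score of 1462.1 (rank 397, -437 bp). Of the bound members it had the highest ratio of the score in replicate 2 over that in replicate 1, 1.77 on the log2 scale. That of ife-2 scored 95.26 and 123.2 in replicates 1 and 2 and 220.7 in the pooled reads (rank 2071, -150 bp), with the lowest such ratio, 0.37 on the log2 scale. Its ranks of 1763 and 2349 in replicates 1 and 2 were the farthest apart of any bound member. None of ife-1, ife-4 and ife-5 was bound. The gene inf-1, for the RNA helicase eIF4A, scored 69.99 and 195.6 in replicates 1 and 2 and 266 in the pooled reads (rank 1819, -383 bp). The gene eif-4A3, for the related helicase of the exon junction complex, scored 54.74 and 97.98 in replicates 1 and 2 and 159.1 in the pooled reads (rank 2629, -463 bp). Its summit in replicate 1 fell just outside the window, so with replicate 1 alone 29 members were bound and eif-4A3 was not. The scaffold gene ifg-1, for eIF4G, was not bound. Its nearest IDR summit lay -669 bp from the start, inside the neighbouring gene M110.3 and in the window of that gene.

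The IDR set keeps peaks that agree between the 2 replicates, so a match in both was largely fixed beforehand. All 30 member peaks were found in both replicates. Each had a summit within 100 bp in either replicate list, against 4718 of 4835 IDR peaks (97.6%), and each ranked within the first 4835 peaks of both lists. Ranks of the member peaks in the 2 replicates gave a Spearman rho of 0.954 over 30 peaks, against 0.920 over 4718 matched IDR peaks. This describes peaks that share the same libraries and carries no test. The 2 lists differ in scale, and replicate 2 had the higher score at all 30 peaks. The log2 ratio of the score in replicate 2 over that in replicate 1 had a median of 0.98 at member peaks (SD 0.34, range 0.37 to 1.77) and of 0.96 at all matched IDR peaks (SD 0.54). Ranks of the member peaks differed by a median of 163 places between replicates and by 586 at most, against a median of 292 places over all matched IDR peaks. Of the 2401 IDR peaks in promoter windows, 2363 (98.4%) were matched. Their ranks differed by a median of 205 places, and their log2 ratio had an SD of 0.489. Member peaks were not compared with other peaks of like score.

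**Figure D3:**
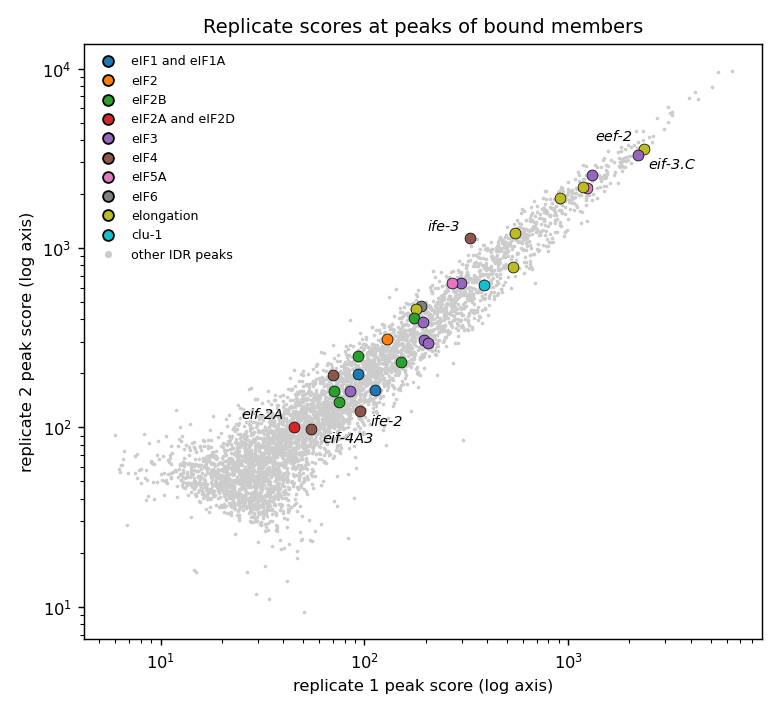
Peak score in replicate 1 (horizontal) and replicate 2 (vertical), both on log axes and in the authors' unstated unit, for the 30 peaks of bound members (large points, coloured by role) and the other matched IDR peaks (small grey points). The member peaks lie within the band of the other peaks or, for ife-3, at its upper edge, and the peaks of eef-2, eif-3.C, eif-3.B, iff-2 and eef-1A.1 occupy the upper right among the members.

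Most member summits lay upstream of the annotated start. This held for 29 of 30 (96.7%), against 93.7% of all bound genes, with a median position of -203.5 bp for members and -170 bp for all bound genes. Summit positions upstream ran from -14 to -463 bp, and 10 of the 30 lay more than 300 bp upstream. The same share over all bound genes was not computed, so this count is not read as a trait of the members. The farthest was that of eif-4A3 at -463 bp, and the nearest IDR summit just outside the window was that of egl-45 at -507 bp, 7 bp beyond the limit. That peak scored 65.43 and 129.1 in replicates 1 and 2 and 197.8 in the pooled reads and lay in the window of kcmf-1. Many worm messages are trans-spliced, so transcription may begin some way from an annotated start.

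In 14 of 30 bound members (46.7%) the summit also lay in the promoter window of a gene on the opposite strand, against 41.8% of all bound genes. The 2 starts of such a pair were 157 to 666 bp apart. The summit lay nearer to the other gene in 10 of the 30 (33.3%), against 21.6% of all bound genes, and a peak of this kind cannot be assigned to either gene of the pair from these data. Examples are eif-1, whose summit lay -11 bp from the start of vps-24 and -407 bp from its own, and eif-4A3, whose summit lay 4 bp from the start of vps-20. The summit of eif-2Bepsilon was -22 bp from piga-1, that of eif-2Bbeta -51 bp from Y47H9C.8 and that of eif-3.D -60 bp from R08D7.4. A few partners with roles in cell division or DNA replication are given next; they were chosen after their values were seen, and no share of such genes was computed. The peak of iff-1 lay -102 bp from cdk-1, the kinase that drives mitosis, and -177 bp from iff-1. The peak of eef-1A.1 lay -152 bp from rfc-4, a subunit of the clamp loader of DNA replication, and -389 bp from eef-1A.1. The peaks of eef-1G and eef-2 lay nearer to the member, at -136 bp from the replisome gene ctf-4 and -251 bp from the claspin gene clsp-1. The other partners were C41D11.3 (with eif-3.H), abtm-1 (eif-3.I), pbs-2 (eif-6), aco-2 (eef-1B.1) and prp-40 (clu-1). The 14 shared peaks had a median score of 622.8 and the 16 unshared ones 417.3, while over all bound genes the medians were 445.7 and 251.9.

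**Figure D4:**
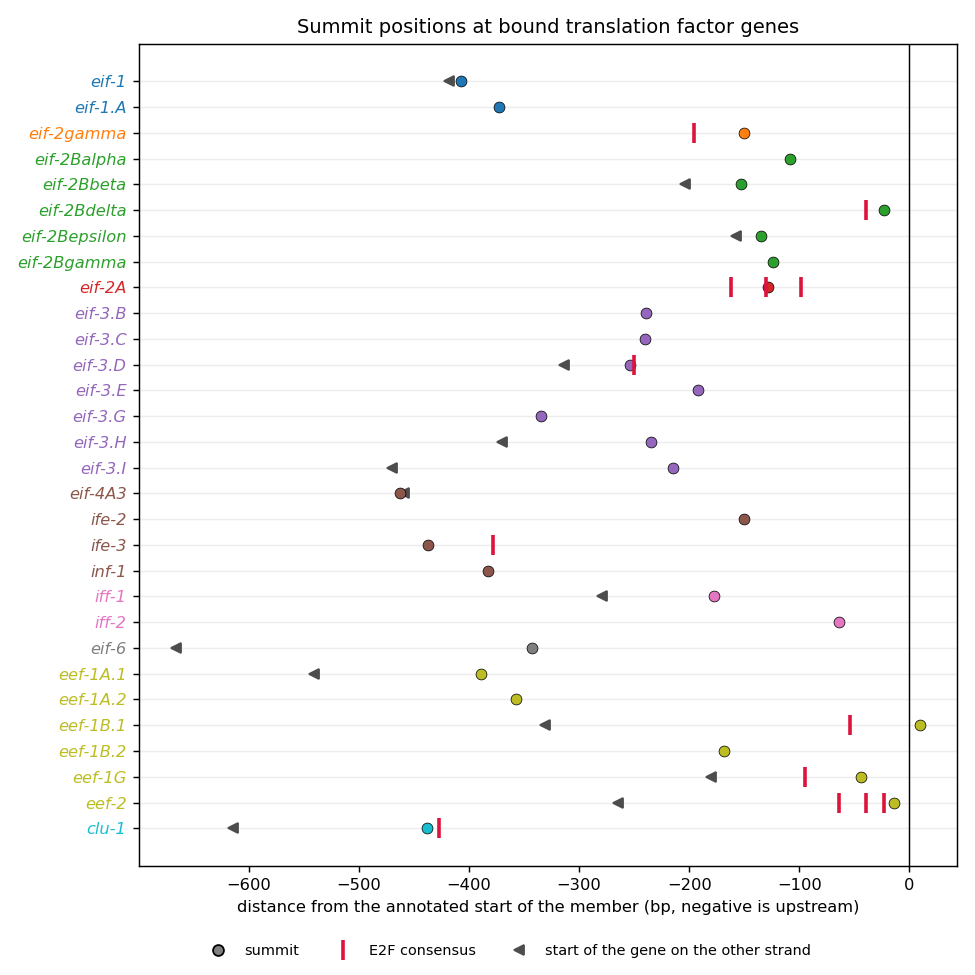
Distance from the annotated start of each of the 30 bound members, in bp with negative values upstream (horizontal axis), of the EFL-1 summit (circles, coloured by role), of every E2F consensus within 100 bp of it (red bars) and of the start of a gene on the opposite strand whose window holds the same summit (triangles). Summits run from -463 bp at eif-4A3 to 10 bp at eef-1B.1, and for 10 of the 14 shared peaks the triangle lies nearer to the summit than the vertical line of the member's start.

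Possible downstream operon genes, which follow the end of another gene of their strand within 500 bp, made up 7 of 42 members (16.7%), against 18.1% of all protein-coding genes. Of these 7, 4 were bound, against 11.1% of all 3615 such genes. The summit of eif-3.C lay in the 401 bp after sys-1, which was itself bound with a score of 1472.4. That of eef-1B.2 lay in the 295 bp after fcd-2, bound with a score of 1483.1. Both peaks reached beyond these gaps. The genes before eif-2gamma and eif-2Bgamma are tbca-1 and C15F1.5, at gaps of 313 and 252 bp. The unbound eif-2alpha starts 133 bp after phb-1, whose own window held a peak with a score of 583.3, and the unbound ife-5 starts 65 bp after Y57A10A.29, which was bound with a score of 71.02. The unbound eif-3.F starts 116 bp after wbp-2, which was not bound.

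The E2F consensus lay within 100 bp of the summit in 9 of 30 bound members (30%), against 19.9% of all bound genes. Over all 4835 IDR peaks the share was 17.5%, over the 2401 IDR peaks in promoter windows 19.8%, and over windows of the same 201 bp centred 150 bp upstream of every protein-coding gene start 6.89%. The members were eif-2gamma, eif-2Bdelta, eif-2A, eif-3.D, ife-3, eef-1B.1, eef-1G, eef-2 and clu-1, and eef-2 and eif-2A held 3 copies each. There were 13 copies in all, at 2 to 64 bp from the summit with a median of 30 bp. In 7 the letters were TTGGCGC, in 5 TTCGCGC and in 1 TTCCCGC. Of the 10 highest-scoring members, 5 held a copy, whereas eif-3.C, eif-3.B, iff-2, eef-1A.1 and eef-1B.2 held none. The median score was 1004.0 for the 9 members with the consensus and 579.9 for the 21 without it, and both groups spanned nearly the whole range, from 147.8 to 5892.4 and from 159.1 to 5496.7. Over all bound genes the medians were 610.9 with and 279.8 without the consensus.

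The CHR, read as TTTGAA or TTCGAA on either strand within 100 bp of the summit, was found in 17 of 30 bound members (56.7%), against 54% of all bound genes. Windows of the same length upstream of all protein-coding genes held it in 55.9% of cases, so its share at member peaks lay near that of promoters in general. The E-box CACGTG, a known contact of Myc-type factors, was found in 0 of 30 member peaks, against 4.86% of all bound genes. Both the E2F consensus and the CHR were found in 4 members, and neither was found in 8. For these combinations no share over all bound genes was computed, so the counts only describe the members. A match is a string of letters and does not show that EFL-1 contacted it. Member peaks were 115 to 492 bp wide with a median of 274 bp, against 319 bp for the best peaks of all bound genes, and their median GC content was 39.8%, against 39.3%.

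The 12 unbound members were not all empty. In 7 of the 12 (58.3%) the relaxed pooled list held a summit in the promoter window, against 20.7% of all unbound genes. Their highest pooled scores were 28.64 for eif-2D, 18.98 for eif-2beta, 17.24 for eif-3.K, 16.99 for ifg-1, 13.76 for eif-3.F, 13.45 for eif-2alpha and 10.95 for ife-1. All of these lay below 59.57, the lowest score of the IDR set. The pooled list ran down to 9.399 with a median of 16.68, so eif-2D, eif-2beta, eif-3.K and ifg-1 lay above its median and eif-3.F, eif-2alpha and ife-1 below it. Of the 7, only eif-2beta (6.885 and 12.39), eif-2D (6.996 and 23.64) and ifg-1 (7.172 and 8.936) had a summit in the window in both replicate lists. The windows of egl-45, eif-3.J, eif-3.L, ife-4 and ife-5 held no relaxed pooled summit, although ife-4 had relaxed summits of 16.76 and 25.99 in the 2 replicate lists. Relaxed lists hold background as well as peaks, so these scores do not show binding. Further away, an IDR summit with a score of 473.7 lay -945 bp from eif-3.J, inside an exon of slc-25A46.

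A list of other genes, most of them tied to translation, was also examined. It includes the spliceosome gene eftu-2, which is counted in the shares given for this list. From a list of 32 names outside the rule, 24 matched a gene, and 18 of these (75%) were bound with a median score of 353.4. The 5 highest-scoring were gcn-1 (4420.7), gcn-2 (3067.1), drr-2 (2260.5), eftu-2 (724.7) and abcf-3 (591.7). The kinase encoded by gcn-2 phosphorylates eIF2 when amino acids run short and gcn-1 encodes its activator, drr-2 is the worm gene for eIF4H, and eftu-2 encodes a GTPase of the spliceosome. The peak of gcn-1 scored 1576.3 and 2851.5 in replicates 1 and 2, and that of gcn-2 1048.5 and 2028.9. Not bound were efk-1, for the kinase of eEF2, ifet-1, abce-1, abcf-2, and dhps-1 and dohh-1, whose enzymes make the hypusine of eIF5A. The relaxed pooled score in the window was 19.76 for efk-1, 31.42 for abcf-2, 14.69 for dhps-1 and 24.66 for dohh-1, and ifet-1 and abce-1 had none. Both iff genes had an IDR summit in the window, and neither gene for the modifying enzymes of eIF5A had one. However, the iff-1 summit lay nearer to the start of cdk-1, and dohh-1 is a possible downstream operon gene. These calls therefore do not show a difference between eIF5A and its enzymes.

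Side by side with the 30 of 42 translation factor genes, 67 of 78 cytosolic ribosomal protein genes (85.9%) and 13 of 32 aminoacyl-tRNA synthetase genes (40.6%) were bound. Median scores were 581.8 for bound translation factor genes, 991.6 for bound ribosomal protein genes and 299.3 for bound synthetase genes. The E2F consensus was found at 9 of 30 bound translation factor genes (30%), 7 of 67 bound ribosomal protein genes (10.4%) and 1 of 13 bound synthetase genes (7.69%). Among the 18 bound genes of the list of other translation genes it was found at 6 (33.3%), the spliceosome gene eftu-2 among them. No test of these differences was made.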

How the data were processed

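EFL-1 ChIP-seq was analysed in 2 biological replicates of L1 larvae, which the labels place in separate biosamples; the library fragments measured 150 to 350 bp, per the labels. Lists on ce11 were used: 1 relaxed list per replicate, 1 relaxed list on the pooled reads and the IDR set. Each gives a peak score, which the authors deposited with no statement of its scale, and the summit offset in bp, another value the authors deposited. Relaxed lists were called against a control, per the deposited text; aligner and caller are not given in the sources here. A score can therefore depend on depth, control and caller in ways that could not be measured. The 4 lists on ce10 were not used, and the control and signal tracks were not analysed here. Peak ends were checked to lie within the chromosomes of WBcel235.

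Gene starts came from Ensembl release 115, on the 6 nuclear chromosomes. Where several summits fell in a window, the one with the highest score was used. Motifs were read from the RefSeq sequence of WBcel235 on both strands. Replicate summits within 100 bp were matched. All 42 members are named with their values; of the other translation genes, the 5 highest-scoring bound and all unbound ones are named. Of those 32 names, 8 matched no gene name (etf-1, denr-1, mcts-1, gfm-2, mtif-2, mtif-3, selb-1 and iftb-1). The members and lists were chosen with earlier results of these data known, so no test was made and counts stand beside the same count over all genes. The calling and motif steps were tested on simulated data. Python 3.11.15, NumPy 2.4.6, SciPy 1.17.1 and matplotlib 3.10.9 were used. Alternatives were other windows, starts and peak lists.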

Additional observations from a re-analysis of the deposited data

How the results depend on the processing

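The count of 30 bound members was 20 with a window of 300 bp upstream and 100 bp downstream, which dropped clu-1, eef-1A.1, eef-1A.2, eif-1, eif-1.A, eif-3.G, eif-4A3, eif-6, ife-3 and inf-1, and 33 with 1000 bp upstream and 500 bp downstream, which added egl-45, eif-3.J and ifg-1. Shares of all protein-coding genes were 11.7% and 19.1%. In the narrower window the initiation factor genes outside eIF3 numbered 10 of 23. When each summit went to the nearest start within 2000 bp, 22 members were bound, 20 of them bound as reported, against 17.2% of all genes. Peaks at or above the median IDR score gave 28 members and 10.4% of all genes, starts of any transcript 31 and 16.3%, and RefSeq starts, chosen after seeing the data, 31 and 15.1%. Any relaxed pooled summit gave 37 members and 32.7% of all genes. Without possible downstream operon genes 26 of 35 were bound, against 16%. Without replicate 2 the count was 29, losing eif-4A3, against 14.8% of all genes, and without replicate 1 it was 30, against 15.3%. The E2F consensus was found in 6 of 30 members (20%) within 50 bp of the summit, against 15.3% of all bound genes, and in 10 (33.3%) within 200 bp, against 23.2%. The CHR was found in 12 (40%) within 50 bp, against 31.5%, and in 22 (73.3%) within 200 bp, against 78.2%. Member peaks were matched in both replicates within 50 and 200 bp in 30 of 30 cases. In all, 54 recomputed values stayed within 1.5 times of the reported ones and 2 did not, both given above. That limit is wide. The 54 include the falls in the narrower window from 30 to 20 members and from 6 to 4 elongation factor genes. They also include the fall from 9 to 6 members with the E2F consensus within 50 bp. The ce10 lists were not run, since no coordinates were converted between builds. No paired analysis was possible because there is only 1 group. Depth is unknown, scores carry no error beyond the 2 replicates, and annotated starts may miss true ones.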
